A study of Mus musculus with 2 samples.

Results

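The genes described here make, carry and remove retinoic acid, and they were followed in optic nerve taken whole from mice on postnatal day 12. The set has 9 genes, chosen by symbol out of 23950 symbols in the deposited tables. It holds the retinaldehyde dehydrogenases Aldh1a1, Aldh1a2 and Aldh1a3, the binding proteins Crabp1, Crabp2 and Rbp4, the uptake receptor Stra6, the catabolic enzyme Cyp26b1 and the retinaldehyde reductase Dhrs3. The study asks how the histone deacetylase HDAC3 acts on the oligodendrocyte and astrocyte lineages. RNA-seq was available as 1 control library, from Hdac3f/+; Olig1-cre mice, and 1 Hdac3 cKO library, from Hdac3f/f; Olig1-cre mice, all of mixed strain. Both groups carry Olig1-cre, a recombinase expressed from the Olig1 gene of the oligodendrocyte lineage, so the controls have 1 floxed Hdac3 allele and the cKO mice have both. How many animals were pooled for a library is not stated in the sources used here. Neither group has a replicate, so every difference below describes these 2 libraries, with no p-value.

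Retinol reaches tissues bound to the carrier RBP4 and can enter cells through the receptor STRA6. It is oxidised to retinaldehyde by retinol dehydrogenases such as RDH10, and retinaldehyde dehydrogenases turn that into retinoic acid, which binds the nuclear receptors RAR and RXR. DHRS3 reduces retinaldehyde back to retinol and CYP26 enzymes degrade retinoic acid, so both lower its level. In the developing mouse brain, the meninges, the fibroblast-rich sheaths around nervous tissue, are a known source of retinoic acid.

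Expression is given as FPKM, fragments scaled by transcript length and sequencing total, so levels of different genes can be set side by side. Each value comes with the lower and upper bound deposited with it. These bounds hold no variation between animals. Summed over all entries, FPKM came to 441867 (control-labelled) and 557861 (cKO-labelled). The largest value of any single gene was 15976 FPKM in control and 77619 in cKO, and these sums include it. Low values fell near whole steps, and the step was 3.11 times finer in the cKO-labelled library, which makes it about that many times deeper if a step is 1 fragment. The targeted gene, Hdac3, measured 36.4 FPKM in control against 38.0 in cKO. That value covers the whole gene and leaves the genotype labels unchecked. Oligodendrocyte markers were lower by the rule below for 9 of 9 genes, where 4.51% of all tested genes were lower.

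Sequences bear on how well these genes can be told apart by reads, and the following coding stretches show it. Over the longest open reading frames of GENCODE M21 transcripts, Aldh1a1 and its neighbour on chromosome 19, Aldh1a7, were identical at 91.6% of 1506 aligned bases. Of all 50-base windows of the Aldh1a1 frame, 10.4% also occurred in Aldh1a7, so some reads may not tell this pair apart. That share does not bound the error of either value, because read length and untranslated parts were not considered. Aldh1a1 was identical to Aldh1a2 at 69.9% and to Aldh1a3 at 69.1% of aligned bases, with 0 shared windows of that size, and Crabp1 and Crabp2 were identical at 70.8%, also with 0. The 60-base stretch with the most differences between Aldh1a1 and Aldh1a7 is shown, starting at base 886 of the Aldh1a1 frame, with capitals at bases that differ from Aldh1a1. Aldh1a7 differs there at 15 bases, Aldh1a2 at 21 and Aldh1a3 at 22.
Aldh1a1: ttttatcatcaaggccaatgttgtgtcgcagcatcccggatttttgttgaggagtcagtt
Aldh1a7: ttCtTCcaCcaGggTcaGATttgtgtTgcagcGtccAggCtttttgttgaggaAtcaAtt
Aldh1a2: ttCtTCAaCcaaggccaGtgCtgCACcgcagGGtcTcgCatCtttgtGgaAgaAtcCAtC
Aldh1a3: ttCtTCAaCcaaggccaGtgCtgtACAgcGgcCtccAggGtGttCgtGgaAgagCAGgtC

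Of the 9 genes, 7 were present at more than 10 FPKM in both libraries, and all 7 were at higher values in the cKO-labelled library, by ratios between 1.87 and 2.45. A difference is given as log2 of cKO over control after 1 FPKM is added to each value. Higher or lower, as a count, means a change of 2-fold or more together with deposited intervals that stay apart. Genes were tested when at least 1 library reached 1 FPKM, which left 14154 genes. By this rule 5 of the 7 were higher (Aldh1a1, Crabp2, Rbp4, Stra6 and Cyp26b1) and 0 were lower, where 4.73% of all tested genes were higher and 4.51% were lower. Aldh1a2 and Dhrs3 fell short of 2-fold on this scale. The median log2 difference of the 7 was 1.10, beside 0.12 over all tested genes. Aldh1a3 and Crabp1 were below 1 FPKM in both libraries and were not tested. On the deposited scale 669 tested genes were higher and 638 lower, and this split moved to 439 and 761 with differences centred on their median and to 215 and 963 with libraries brought to equal sums. The 7 differences stayed above 0 under these scalings, but 3 of the genes were counted as higher after centring and 0 after scaling to the same sum. Scaling to the same sum depends in part on the largest single values, 15976 FPKM in control and 77619 in cKO.

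**Figure D1:**
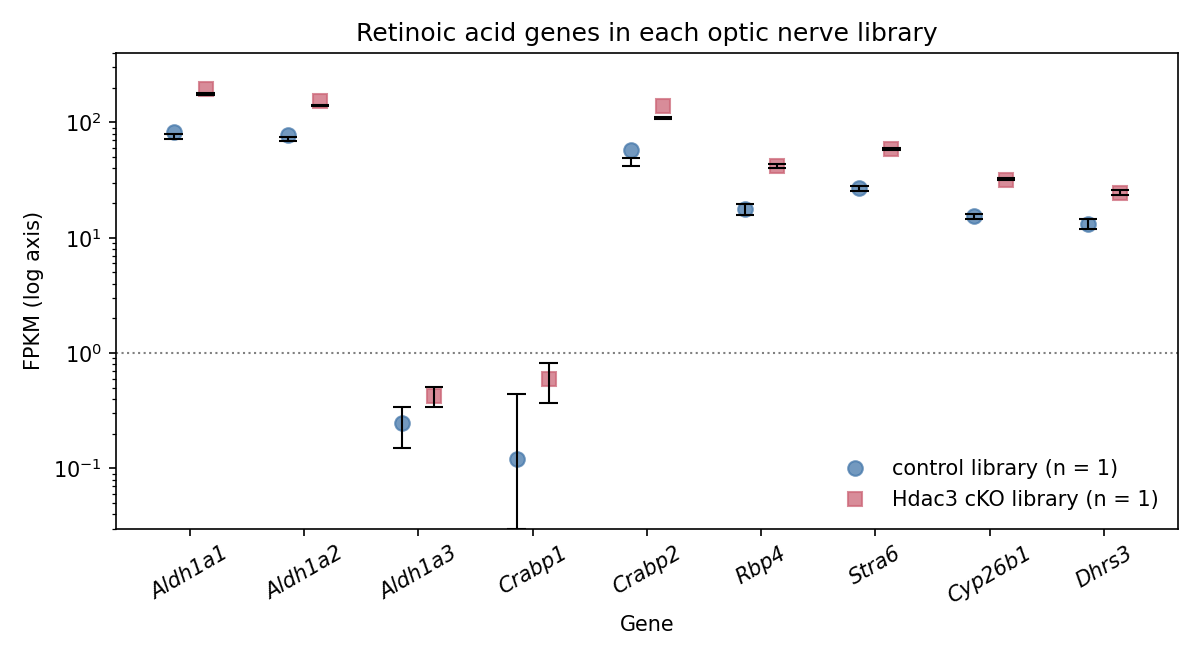
FPKM (log axis) of the 9 genes in the control library (circles) and the Hdac3 cKO library (squares), 1 library each, with black bars for the deposited intervals. The dotted line marks 1 FPKM, the lower bar of Crabp1 in the control library runs off the axis to 0, and the squares of the 7 abundant genes all sit above the circles.

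Among the enzymes that make retinoic acid, Aldh1a1 and Aldh1a2 were the 2 most abundant genes of the set in both libraries, and Aldh1a3 was barely detected. Aldh1a1 (chromosome 19, 20676472 to 20717952, mm9) measured 82.5 FPKM in control (interval 72.3 to 78.6) and 195 FPKM in cKO (interval 174 to 179). The intervals are far apart and the log2 difference was 1.23, although both FPKM values lie above their own intervals. The related Aldh1a7 was at 3.56 and 8.50 FPKM (log2 1.06), so Aldh1a1 exceeded it 23.2-fold in the control-labelled library and 22.9-fold in the other. How much of the Aldh1a7 values comes from reads of Aldh1a1 was not tested.

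Aldh1a2 (chromosome 9, 71063596 to 71144050), the dehydrogenase known for embryonic retinoic acid synthesis in mice, measured 77.5 FPKM in control (interval 68.8 to 74.4) and 153 FPKM in cKO (interval 138 to 142). These intervals do not overlap either, and the log2 difference of 0.97 stops just short of 2-fold. Aldh1a3 (chromosome 7, 73535779 to 73572363) measured 0.249 FPKM in control against 0.422 in cKO, with overlapping intervals. Within the summed FPKM of the 3 dehydrogenases, Aldh1a1 made up 51.5% in control and 56.0% in cKO, Aldh1a2 48.4% and 43.9%, and Aldh1a3 0.156% and 0.121%. In control the intervals of Aldh1a1 and Aldh1a2 overlapped, so their order is not resolved there, while in cKO Aldh1a1 stood above Aldh1a2.

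The binding and uptake genes ranged from abundant to barely detected. Crabp2 (chromosome 3, 87752615 to 87757294), whose protein hands retinoic acid to its nuclear receptor, measured 57.2 FPKM in control against 140.2 in cKO. Its deposited intervals of 42.1 to 49.3 and 106 to 113 lie below the values themselves. The log2 difference of 1.28 was the largest of the 7. Crabp1 (chromosome 9, 54612555 to 54620917), the other cytosolic binding protein, measured 0.121 FPKM in control, with an interval from 0 to 0.438, and 0.590 in cKO, with one from 0.371 to 0.811. These intervals overlap, so no difference was detectable. Crabp2 was therefore the abundant form in both libraries.

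Rbp4 (chromosome 19, 38191110 to 38199811), the retinol carrier of plasma, measured 17.7 FPKM in control (interval 15.7 to 19.7) and 41.8 FPKM in cKO (interval 39.9 to 44.0), a log2 difference of 1.20. Stra6 (chromosome 9, 57976895 to 58001804), the membrane receptor for RBP4, measured 26.7 FPKM in control (25.2 to 28.3) against 58.5 in cKO (57.8 to 60.5), a log2 difference of 1.10. Carrier and receptor thus had close ratios between the libraries, 2.37 for Rbp4 and 2.19 for Stra6, and Stra6 exceeded Rbp4 1.51-fold in control and 1.40-fold in cKO.

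The genes that oppose retinoic acid were at lower levels than Aldh1a1 and Aldh1a2. Cyp26b1 (chromosome 6, 84521408 to 84543902), which degrades retinoic acid, measured 15.3 FPKM in control (14.5 to 16.2) against 32.0 in cKO (31.6 to 33.1). Its log2 difference was 1.01, close to the threshold. Dhrs3 (chromosome 4, 144482730 to 144517548), the retinaldehyde reductase, measured 13.1 FPKM in control (11.8 to 14.4) against 24.6 in cKO (23.3 to 25.9), with separate intervals and a log2 difference of 0.86, the smallest of the 7. The summed FPKM of the 3 dehydrogenases was 10.4 times that of Cyp26b1 in control and 10.9 times in cKO, so the balance of these transcripts was nearly the same in both libraries. The order of the 7 abundant genes, from Aldh1a1 through Aldh1a2, Crabp2, Stra6, Rbp4 and Cyp26b1 to Dhrs3, was also the same in both. Of these neighbours, Aldh1a1 and Aldh1a2 and likewise Rbp4 and Cyp26b1 had overlapping intervals in control, and no pair of them did in cKO. The cKO value of Crabp2, however, lies outside its own interval and within that of Aldh1a2, so the order of these 2 is less sure.

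Other genes of the pathway moved less uniformly. Of 47 further retinoid genes, 28 were tested, 4 were higher and 1 was lower by the rule, and their median log2 difference was 0.43. The shares over all tested genes were 4.73% higher and 4.51% lower. The 14 retinol dehydrogenases and related enzymes had 8 tested genes, of which 0 met the rule in either direction, with a median of 0.40. Rdh10, the main enzyme that oxidises retinol for retinoic acid synthesis in mouse embryos, measured 5.42 FPKM in control against 7.94 in cKO (log2 0.48). Adh1, an alcohol dehydrogenase that can use retinol, was at 5.06 and 10.6 FPKM (log2 0.94). Rdh11, a reductase and dehydrogenase of retinoids, differed the other way, with 38.2 FPKM in control against 21.2 in cKO (log2 -0.82). The 7 genes of retinyl ester and carotenoid metabolism had 4 tested, with 0 counted in either direction and differences between 0.21 and 0.48 (Lipe, the lowest, was -0.07 with equal sums), and Lrat, which forms retinyl esters, was at 0.0378 FPKM or less in both libraries.

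Some further binding proteins differed in the direction opposite to Crabp2. Fabp5, a fatty acid-binding protein that can also carry retinoic acid, was lower, with 340.3 FPKM in control against 115 in cKO (log2 -1.55). Fabp5 was 5.95 times Crabp2 in the control-labelled library and 0.822 times in the other. In cKO its interval of 113 to 119.8 FPKM lies above that of Crabp2 while its FPKM lies below, so their order is not resolved there. Rlbp1, the retinaldehyde-binding protein of the visual cycle, was at 10.6 and 5.75 FPKM (log2 -0.79). Oligodendrocyte markers were lower beside Fabp5, Rdh11 and Rlbp1, with a summed level of 12448 FPKM in control and 1856 in cKO, and their part in these values was not tested.

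Receptors of retinoic acid were all at larger values in the cKO-labelled library, and 0 of 6 met the rule. Rarb, a receptor gene that retinoic acid itself induces in many cells, measured 5.86 FPKM in control against 11.9 in cKO (log2 0.91), Rarg 8.23 and 16.1 (log2 0.89), and Rara 3.99 and 7.33 (log2 0.74). Rxra was at 6.01 and 12.2 FPKM (log2 0.91). Rxrb, at 16.5 and 18.8 FPKM (log2 0.18), and Rxrg, at 2.13 and 2.38 (log2 0.11), lay near the median of all genes, and both turned negative with libraries brought to equal sums (-0.14 and -0.12), Rxrg also with centring (-0.01).

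Genes known to respond to retinoic acid in some cell types had 7 of 11 members tested, of which 3 were higher and 0 lower. Over all tested genes, 4.73% were higher and 4.51% were lower. Rarres2, which encodes the secreted protein chemerin, measured 96.6 FPKM in control against 246 in cKO (log2 1.34). Tgm2, a transglutaminase, was at 13.6 and 31.6 FPKM (log2 1.16). Tested members that did not meet the rule were Rarres1 (log2 0.59), Nrip1 (log2 0.17, and -0.07 with equal sums), Meis2 (log2 0.11, and -0.05 with equal sums) and Meis1 (log2 -0.23). Cyp26a1, a catabolic gene strongly induced by retinoic acid in embryos, was at 0.0363 FPKM or less in both libraries, and its relative Cyp26c1 was at 0.0268 in control and listed at 0 in cKO, so 0 of these 2 were tested.

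Retinoic acid receptors bind pairs of short half-sites in the same orientation, and promoters were searched for such pairs on both strands. Each half-site could be the form AGGTCA or the related form AGTTCA, or else the variants that begin with G, which are the form GGGTCA and the further form GGTTCA, with 1, 2 or 5 bases between the members of a pair, in the 250 bases before each start of the RefSeq annotation (build GRCm38.p6). A pair occurred in 0.426% of 32851 such windows, some of which overlap each other. Of the 9 genes 7 matched the promoter table, with 14 windows, and 0 windows held a pair. Aldh1a3 and Crabp2 had no promoter entry and were not searched. At a share of 0.426%, 14 windows would be likely to hold no pair, so this result does not set the genes apart from other promoters. Of the 47 further retinoid genes 35 matched, and pairs with 5 bases between occurred in Rarb and Cyp26a1. Both promoters are shown with the pair in capitals, beside Aldh1a2 and Cyp26b1 as the synthetic and catabolic genes with 1 window each and no pair.
Rarb, chr14:16575477-16575726, minus strand: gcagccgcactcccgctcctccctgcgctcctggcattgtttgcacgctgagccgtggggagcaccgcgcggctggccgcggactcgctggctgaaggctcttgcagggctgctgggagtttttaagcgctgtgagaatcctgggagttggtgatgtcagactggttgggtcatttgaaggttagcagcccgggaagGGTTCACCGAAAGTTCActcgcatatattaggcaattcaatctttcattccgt
Cyp26a1, chr19:37697558-37697807, plus strand: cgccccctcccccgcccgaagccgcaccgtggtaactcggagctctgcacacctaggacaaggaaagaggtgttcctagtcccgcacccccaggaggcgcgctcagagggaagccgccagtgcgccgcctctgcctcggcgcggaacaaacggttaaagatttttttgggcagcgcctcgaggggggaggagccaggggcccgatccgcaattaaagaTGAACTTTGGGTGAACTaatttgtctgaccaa
Aldh1a2, chr9:71215539-71215788, plus strand: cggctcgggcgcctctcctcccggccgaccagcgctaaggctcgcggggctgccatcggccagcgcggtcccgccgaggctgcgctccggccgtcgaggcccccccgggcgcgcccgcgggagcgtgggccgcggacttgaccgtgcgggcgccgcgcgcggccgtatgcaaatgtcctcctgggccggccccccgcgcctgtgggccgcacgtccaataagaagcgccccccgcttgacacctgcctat
Cyp26b1, chr6:84593811-84594060, minus strand: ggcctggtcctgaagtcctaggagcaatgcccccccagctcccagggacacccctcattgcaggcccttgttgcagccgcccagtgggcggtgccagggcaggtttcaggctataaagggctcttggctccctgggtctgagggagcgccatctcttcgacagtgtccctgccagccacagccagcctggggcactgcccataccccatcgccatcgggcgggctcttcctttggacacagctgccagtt
In the sequences as printed, the capitals begin 53 bases before the start in Rarb (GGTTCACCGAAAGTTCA) and 32 bases before it in Cyp26a1. The pair in Cyp26a1 reads on the opposite strand, so its own first base is the last capital. These promoters share the spacing of 5 bases, while Rarb was at 11.9 FPKM and Cyp26a1 near 0 in the cKO-labelled library. The values do not show which promoter a transcript used.

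**Figure D2:**
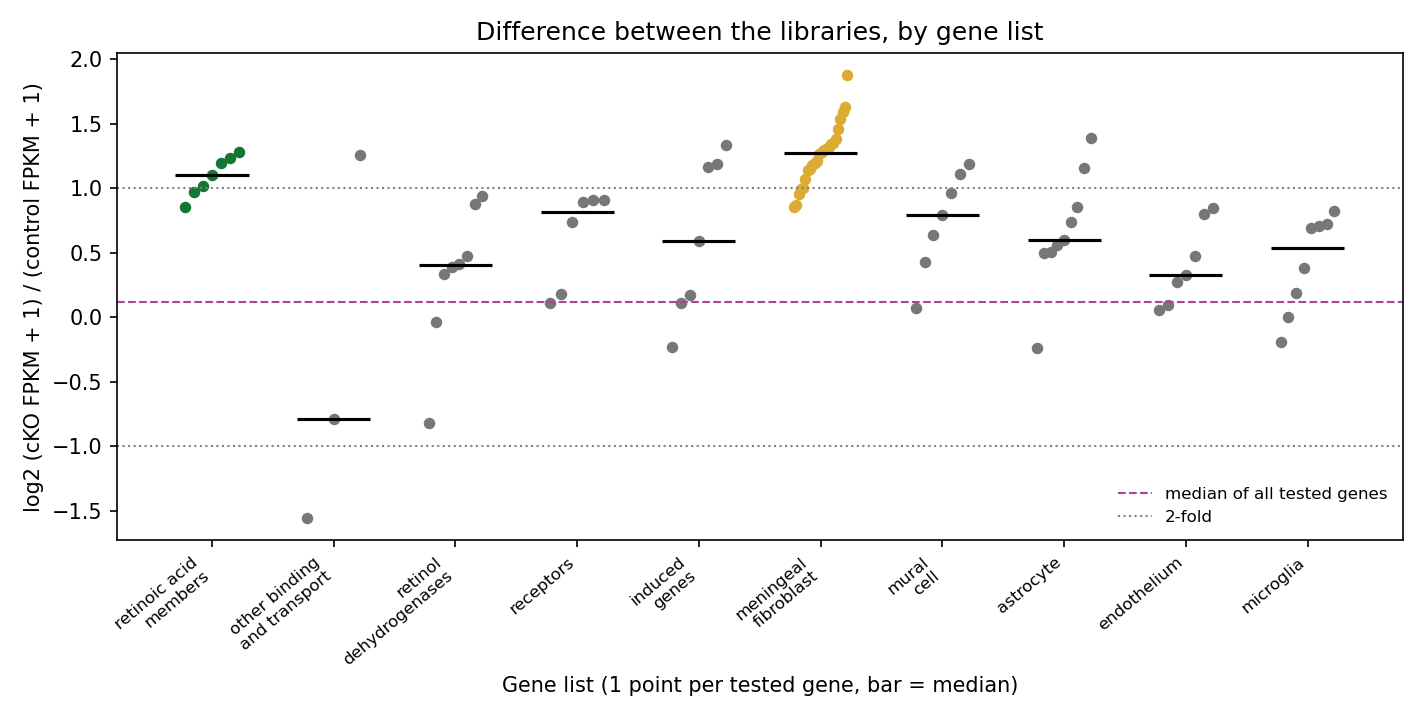
Log2 difference between the libraries for each tested gene (points) of the retinoic acid genes, 4 further retinoid lists and 5 lists of cell type markers, with bars for list medians. The dashed line is the median of all tested genes (0.12) and dotted lines mark 2-fold. The 7 retinoic acid genes lie within the ranges of both the meningeal fibroblast and the astrocyte markers. The astrocyte range reaches them only through Gja1 and Gjb6.

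Markers of meningeal fibroblasts were also at higher values in the cKO-labelled library. This list, like the members, was chosen with earlier results of these data known, so it is no independent check. Of 24 markers, all tested, 20 were higher and 0 lower by the rule, where 4.73% of all tested genes were higher and 4.51% lower. Their log2 differences ran from 0.85 to 1.88 around a median of 1.27. Slc22a6, an organic anion transporter, measured 12.3 FPKM in control against 47.9 in cKO (log2 1.88), and the matricellular gene Nov 72.8 and 213 (log2 1.53). Col3a1, a fibrillar collagen, was at 285 and 684 FPKM (log2 1.26), and Col1a1 at 259 and 469 (log2 0.85). All 7 abundant retinoic acid genes fell within the range of these markers, 6 below their median and 1, Crabp2, above it. In whole tissue, more cells of a type and more RNA per cell cannot be told apart.

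Each retinoic acid gene was also expressed as a share of the summed FPKM of the 24 meningeal markers, 2635 in control and 6211 in cKO. Abundant markers weigh most in this sum, and Igf2 alone contributed 679 FPKM in control and 1665 in cKO (log2 1.29). Aldh1a1 was 3.13% of that sum in control and 3.14% in cKO, Rbp4 0.671% and 0.674%, and Crabp2 2.17% and 2.26%. These 3 shares moved by at most 1.04-fold. Stra6 was 1.02% in control and 0.941% in cKO, and Cyp26b1 0.582% and 0.515%. Aldh1a2 went from 2.94% to 2.46%, and Dhrs3 from 0.497% to 0.395%, the ratios furthest from 1, 0.838 and 0.795. Together the 7 genes made up 11.0% of the meningeal sum in control and 10.4% in cKO. This ratio is taken within each library, so a common scaling of a library cancels out.

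**Figure D3:**
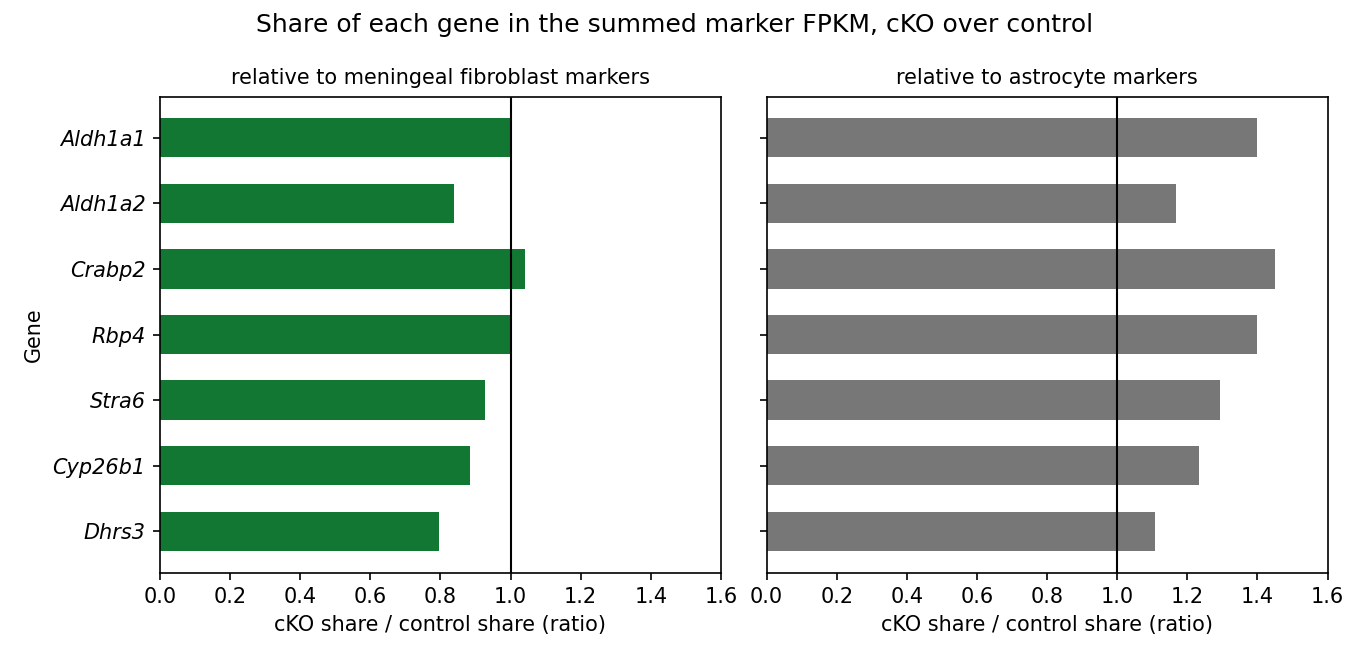
Ratio of cKO share to control share for each of the 7 abundant genes, relative to the summed FPKM of 24 meningeal fibroblast markers (left) and of 9 astrocyte markers (right). Against the meningeal sum the ratios lie between 0.795 and 1.04, and against the astrocyte sum all 7 lie above 1.

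Against the sums of other cell types the shares moved by different amounts. Beside the counts given here, 4.73% of all tested genes were higher and 4.51% were lower. Astrocyte markers had a median log2 difference of 0.60, with 2 of 9 higher and 0 lower. Their range of -0.24 to 1.39 also holds all 7 retinoic acid genes, but only through those 2, Gja1 (1.15) and Gjb6 (1.39). The next marker, Aldoc, was at 0.856, just below Dhrs3 at 0.858. The sum of the astrocyte markers was 1107 FPKM in control and 1871 in cKO. The 7 genes together were 26.2% of that sum in control and 34.5% in cKO. The ratio of shares was 1.40 for Aldh1a1 and Rbp4, but 1.17 for Aldh1a2 and 1.11 for Dhrs3, which is nearer to 1 on the log2 scale than against the meningeal sum. Mural cell markers had a median of 0.80, with 2 of 7 higher, and a sum of 263 and 481 FPKM. Against that sum the ratio of shares was 1.08 for Aldh1a2 and 1.02 for Dhrs3, also nearer to 1 than against the meningeal sum, and 1.29 for Aldh1a1 and Rbp4. Endothelial markers had a median of 0.33 with 0 of 7 counted and a sum of 130 and 165 FPKM, and microglial markers 0.54 with 0 of 8 counted and a sum of 236 and 368. Each of the 7 genes had a larger difference than the medians of the astrocyte, mural and endothelial lists. Of 4 blood genes, 3 were tested and 2 were higher, with a sum of 85.4 and 265 FPKM. The part of these cell types in the retinoic acid values was not tested.

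Retina and pigment epithelium also express several of these genes in mice, and most of the markers listed for photoreceptors and pigment epithelium were below 1 FPKM. Other retinal cells had no list, and the part of these tissues in the retinoic acid values was not tested. All 8 photoreceptor markers were below 1 FPKM in both libraries, with a summed level of 2.02 in control and 2.22 in cKO. Of 9 markers of pigment epithelium and choroid plexus, 6 were below 1 FPKM in control and 5 in cKO, and Rpe65, the isomerase of the visual cycle, was at 0.0221 and 0.00698 FPKM. The most abundant gene of that list was Rlbp1, given above. Of its 4 tested genes 1 was higher by the rule (4.73% of all tested genes were), Kl, at 2.09 and 5.93 FPKM (log2 1.17). Tyr, at 2.20 and 2.54 FPKM, and Best1, at 0.482 and 1.36, were tested and did not meet it. Schwann cell markers summed to 3.50 and 6.01 FPKM with 0 of 2 tested genes counted, and skeletal muscle markers to 15.8 and 19.2 with 0 of 3.

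**Figure D4:**
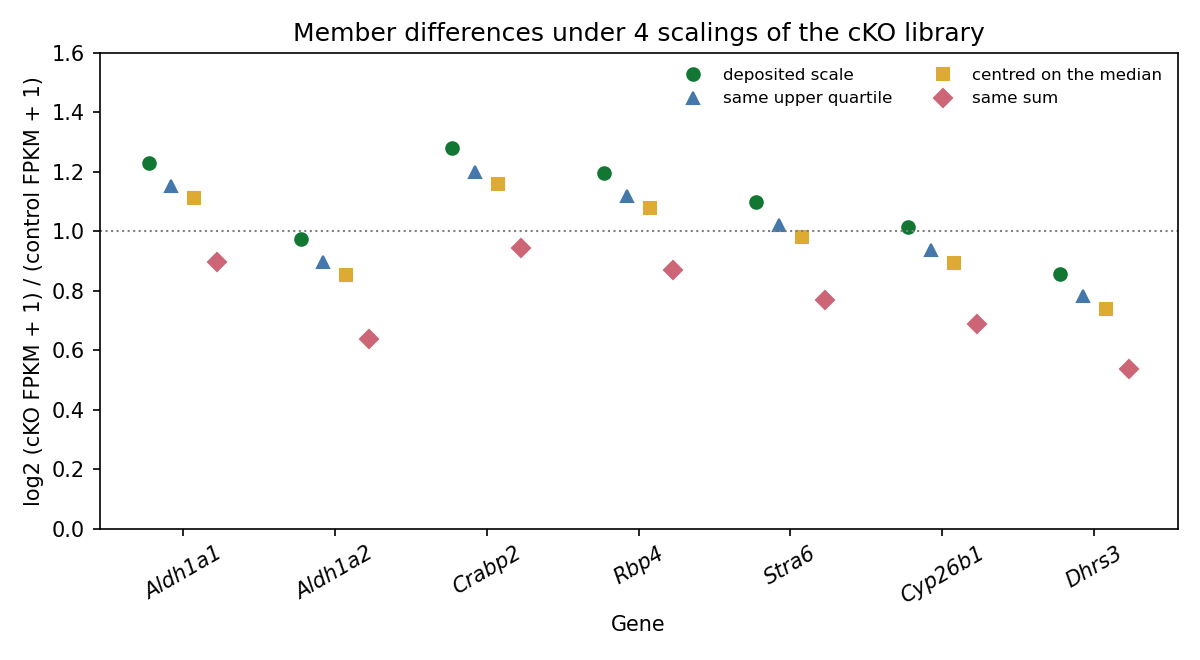
Log2 difference of the 7 abundant genes under 4 scalings of the cKO library, with the dotted line at 2-fold. All points lie above 0, and with both libraries scaled to the same sum of FPKM all 7 lie under the 2-fold line, from 0.54 for Dhrs3 to 0.95 for Crabp2.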

How the data were processed

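Total RNA of frozen optic nerves was extracted with Trizol and made into libraries with the Illumina TruSeq RNA kit, per the labels' protocols. The authors deposited FPKM per gene with interval bounds and a status, per the file headers. Tools listed in the submitters' processing notes are Cufflinks, TopHat and CASAVA, with mm9 as genome build, while tool versions and the annotation are not stated there. The 24460 entries were matched by symbol, start site group and locus, and a symbol with several entries was represented by the highest summed FPKM. The 9 genes have 1 entry each. A gene was tested with status OK in both libraries and at least 1 FPKM in 1 of them, with a pseudocount of 1 FPKM and a threshold of 2-fold with separate intervals. The scripts ran in Python 3.11.15 with pandas 2.3.3. The rule was run on simulated data with changes larger than the threshold and intervals centred on each value. That check does not cover changes near 2-fold, values outside their own interval or variation between animals. Coordinates are those of the files with 1 added to the start.

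Over 8770 genes with at least 5 FPKM in both libraries, the median half-width of the interval was 7.53% in control and 4.23% in cKO. It was 3.95% to 11.4% and 1.55% to 5.22% for the 7 abundant genes. Among genes of at least 1 FPKM, 15.9% of control and 33.0% of cKO values lie outside their own interval, as do 3 of the 9 genes in each library (Aldh1a1, Aldh1a2 and Crabp2). Fragment numbers behind the values are unknown. Low values multiplied by GENCODE M21 transcript length lay within 0.2 of a whole step for 71.9% of 199 genes in control and 68.7% of 166 in cKO, where an even spread would give 40%.

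The members and the 17 other gene lists were chosen with earlier results of these data known. The text names all 9 members, tested genes of 6 retinoid lists (a few are not reported here), and, of the meningeal list, some of the 4 genes with the highest mean FPKM and of the 4 with the largest difference. Lrat, Cyp26a1, Rpe65, Kl, Tyr, Best1, Gjb6, Aldoc and Aldh1a7 were named after their values were seen. Alternatives changed the pseudocount, the minimum FPKM, the scaling, the interval rule and the choice of entries.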

Additional observations from a re-analysis of the deposited data

How the results depend on the processing

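Directions of the 7 abundant genes held in all 10 alternatives, with differences of 0.54 to 1.29, but the count of 5 higher genes did not. Equal upper quartiles gave 4, a pseudocount of 5 or centring on the median gave 3, and equal sums gave 0. Aldh1a2 and Dhrs3 were counted in 0 of the 10. The median of the 7 was 0.98 after centring and 0.77 with the same sum. The median of meningeal markers was 1.10 with a pseudocount of 5 and 0.94 with the same sum, where 8 markers were higher. Of further retinoid genes, 7 were higher with a pseudocount of 0.1, and 1 was higher and 3 lower with the same sum, including Rdh11 (-1.14) and Rlbp1 (-1.07). Among all tested genes, 1156 were higher with a pseudocount of 0.1, 282 higher and 339 lower with a pseudocount of 5, 439 higher after centring, and 215 higher and 963 lower with the same sum. The median over all tested genes shifted from 0.12 to -0.17 with the same sum. The cause was not tested beyond the construction of each setting. Widening the intervals to hold their own FPKM, chosen after seeing the data, left 5 higher. No paired analysis was possible because each group has 1 library. Depth cannot be separated from group here, and the wider intervals of control limit genes below 1 FPKM such as Crabp1.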
